A study of Homo sapiens with 8 samples.

Results

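The 32 genes described here are named as subunit genes of nuclear RNA polymerases I, II and III, out of 13453 genes in the deposited table. They were taken by name, as every row with a single gene name that begins with POLR1, POLR2 or POLR3 followed by a letter, together with ZNRD1, TWISTNB and CD3EAP, older names of Pol I subunit genes now called POLR1H, POLR1F and POLR1G. By complex they comprised 6 Pol I genes, 2 genes shared by Pol I and Pol III, 5 genes shared by all 3 enzymes, 9 Pol II genes and 10 Pol III genes. A further 2 rows named for several genes at once, one with POLR2M and one with POLR2J2, were not counted as members. POLR2J4, counted with Pol II, is a non-coding pseudogene copy, and the Pol III subunit gene CRCP falls outside the choice by name.

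The study compared clones of Jurkat, a human T-acute lymphoblastic leukemia cell line, by RNA-seq after loss of CBAP, the adaptor protein encoded by TMEM102. The shRNA set held sh-Ctrl cells, which carry a non-targeted lentiviral vector, and CBAP knockdown cells, which carry a lentiviral shRNA against CBAP. The CRISPR set held CBAP-reconstituted cells, which are CBAP knockout cells expressing a CBAP-GFP fusion, and CBAP knockout cells expressing GFP alone, so both groups of this set carry the CRISPR/Cas9 edit made at 1 target site and neither is an unedited line. Each of the 4 conditions had 2 libraries, and no label says whether these came from separate cultures, so the p-values measure the spread between these libraries, which may be technical.

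Pol I transcribes the large ribosomal RNA precursor in the nucleolus, Pol II transcribes messenger RNAs, and Pol III transcribes transfer RNAs and 5S ribosomal RNA. Each enzyme has a pair of large subunits that form the active site, a set of small subunits that all the enzymes share, a stalk that protrudes near the RNA exit, and a zinc-ribbon subunit. Growing leukemia cells depend heavily on Pol I and Pol III for ribosome production.

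Expression was given as FPKM, mapped fragments scaled for transcript length and for the size of the library, which allows levels of different genes to be set side by side. The sequencing depth is unknown, since the table holds no counts. A gene was called changed when limma, a linear model fitted over the 11427 genes whose FPKM averaged 1 or more, gave a Benjamini-Hochberg adjusted p under 0.05, and changes are differences in log2(FPKM + 1), which understate the change of low genes. All 32 subunit genes passed the expression minimum, and none was listed at 0 in any library. POLR2J3 passed it through the shRNA set only, since its means in CBAP-reconstituted and CBAP knockout were 0.463 and 0.471 FPKM. Its CRISPR-set change is therefore no reading, though it stays in all counts, shares and medians. TMEM102 itself was measured at 4.07 and 4.74 FPKM in sh-Ctrl and at 2.69 and 2.89 FPKM in CBAP knockdown (log2 change -0.51 ± 0.10 SE, limma adjusted p = 0.0287), and every library of the CRISPR set listed it at 0, so the labels of that set are not checked by it. Markers of T cells were read in all 8 libraries at unequal levels, with CD3D at 446 to 553 FPKM, LCK at 218 to 303 FPKM and CD28 at 2.59 to 37.5 FPKM. Of the 9 T-cell markers 8 were in the table, and their summed level ran from 1497 to 1686 FPKM in the shRNA set, from 1509 to 1516 FPKM in CBAP-reconstituted and from 1787 to 2243 FPKM in CBAP knockout. Among 11 markers of B cells, myeloid cells and epithelium only CD79A was in the table, at 13.0 to 22.5 FPKM in the shRNA set, 0.73 to 1.09 FPKM in CBAP-reconstituted and 9.60 to 9.91 FPKM in CBAP knockout. The part of these markers in the results below was not tested, and in bulk RNA fewer cells of a type and less RNA per cell cannot be told apart.

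The promoters of the members with the largest falls in the CRISPR set are shown because the genes moved together there. RefSeq promoters on GRCh38.p14 were matched for 22 of the 32 genes, and the stretches printed are the 250 bases before the annotated start on the sense strand. ZNRD1 (chr6:30061015-30061264, plus strand), CD3EAP (chr19:45406394-45406643, plus strand) and POLR2C (chr16:57462429-57462678, plus strand) had the largest called falls among the matched genes, and POLR2B (chr4:56978646-56978895, plus strand) is given as a gene that was not called. Capitals mark the motifs found on either strand, which are CCAAT for the CCAAT box in ZNRD1, CACGTG for the E-box in CD3EAP and CCGGAA for the ETS core in POLR2C.
ZNRD1: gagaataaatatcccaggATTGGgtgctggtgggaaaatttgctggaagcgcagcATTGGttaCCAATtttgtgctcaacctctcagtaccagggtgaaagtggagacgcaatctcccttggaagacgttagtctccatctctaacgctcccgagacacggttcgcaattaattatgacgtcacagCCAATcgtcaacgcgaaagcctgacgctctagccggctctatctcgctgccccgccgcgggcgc
CD3EAP: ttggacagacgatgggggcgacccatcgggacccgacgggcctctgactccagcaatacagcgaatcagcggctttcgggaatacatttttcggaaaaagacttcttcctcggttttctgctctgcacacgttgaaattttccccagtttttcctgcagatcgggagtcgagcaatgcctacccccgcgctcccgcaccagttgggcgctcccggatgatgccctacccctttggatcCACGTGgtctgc
POLR2C: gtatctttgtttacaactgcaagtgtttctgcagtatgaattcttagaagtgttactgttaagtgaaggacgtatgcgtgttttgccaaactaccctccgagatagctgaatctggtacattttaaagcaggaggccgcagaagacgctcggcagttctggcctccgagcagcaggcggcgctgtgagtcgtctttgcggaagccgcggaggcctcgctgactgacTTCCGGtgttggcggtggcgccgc
POLR2B: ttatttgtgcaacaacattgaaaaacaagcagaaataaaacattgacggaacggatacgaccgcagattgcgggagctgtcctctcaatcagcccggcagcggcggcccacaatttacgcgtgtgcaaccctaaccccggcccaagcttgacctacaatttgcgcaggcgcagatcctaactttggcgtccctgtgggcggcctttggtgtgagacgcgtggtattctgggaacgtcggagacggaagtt

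None of the 5 motifs searched overlapped another in these windows, and none was found in that of POLR2B. POLR2B does not stand for all matched genes that were not called lower, since some of these held motifs, as given below. Motifs were counted by gene, with a gene counted if any of its RefSeq promoters held the letters. The ETS core CCGGAA was present in 9 of the 22 matched subunit genes (40.9%, against 17.2% of 27305 genes). These were POLR1B, POLR1C, POLR2C, POLR2F, POLR2H, POLR2L, POLR3A, POLR3C and POLR3GL. The E-box CACGTG was present in 3 of 22 (13.6% against 7.7%), in CD3EAP, POLR3A and POLR3C. The CCAAT box was present in 6 of 22 (27.3% against 37.0%), while the TATA box TATAAA (13.0% of all genes) and the YY1 core AAGATGGC (1.6%) were found in none of the 22. Of the 13 matched genes that fell in the CRISPR set, 5 held the ETS core, 3 the CCAAT box and 2 the E-box. Among the matched genes not called lower, POLR2F, POLR2L, POLR3C and POLR3GL held the ETS core. POLR3B, POLR3C and POLR3GL held the CCAAT box, and POLR3C the E-box. Whether a motif goes with a fall was not tested. Median GC content of the first listed promoter of each gene was 60.6% over the matched subunit genes and 58.0% over all genes. A match is a description of these letters, and occupancy by any factor was not measured.

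The level of the subunits spanned a wide range within every library. In sh-Ctrl the highest means belonged to POLR2G, POLR1D, POLR2K and POLR2L, at 109, 89.0, 86.4 and 79.7 FPKM, and the lowest to CD3EAP, POLR3F, POLR3B and POLR2J4, at 9.78, 9.23, 5.61 and 2.93 FPKM. The genes at the top serve more than 1 enzyme or, for POLR2G, form part of the Pol II stalk. The catalytic subunits of Pol III sat low, with POLR3A at 10.3 FPKM and POLR3B at 5.61 FPKM in sh-Ctrl, against 63.1 FPKM for POLR2A and 69.7 FPKM for POLR2B of Pol II. POLR1A and POLR1B, their counterparts in Pol I, were at 15.4 and 13.3 FPKM. The members together made up 0.314% to 0.332% of the summed FPKM in the shRNA set, 0.337% in both CBAP-reconstituted libraries and 0.279% in both CBAP knockout libraries.

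**Figure D1:**
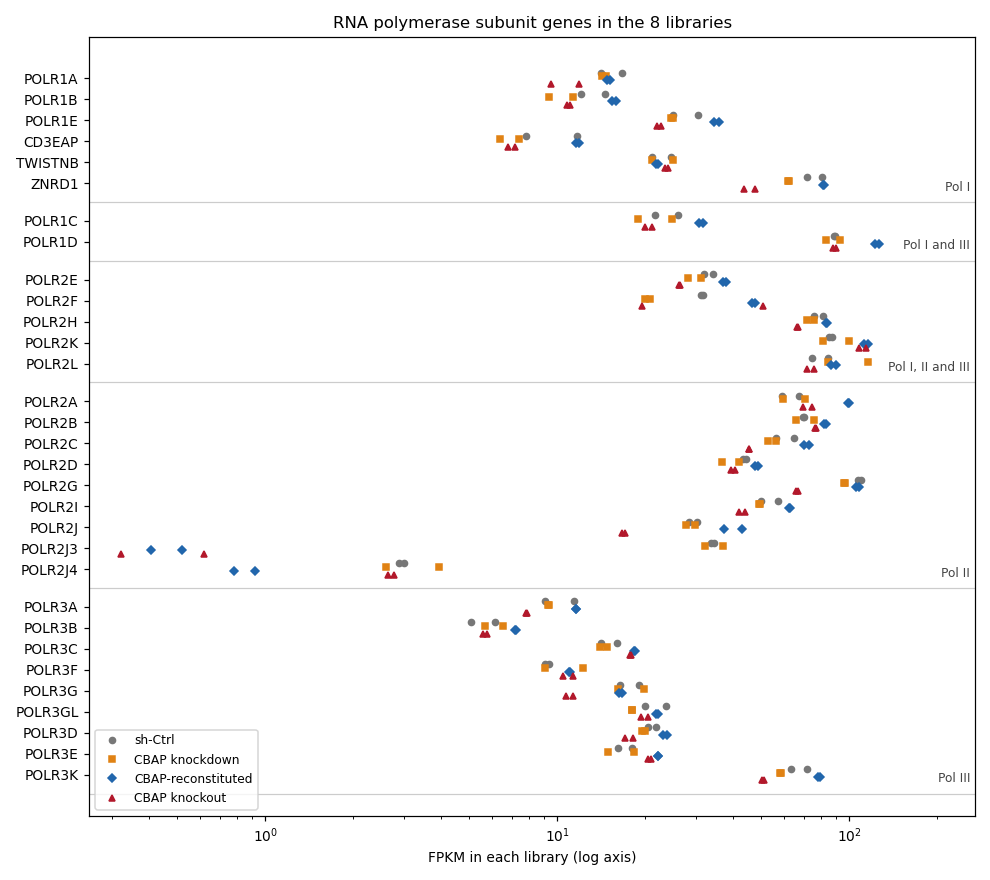
FPKM of 31 of the 32 subunit genes (log axis) in each of the 8 libraries, grouped by polymerase, with 1 point per library and 2 libraries per condition. CBAP knockout points lie left of the CBAP-reconstituted points for most genes, and POLR2J3 is near 34 FPKM in the shRNA set and at most 0.62 FPKM in the CRISPR set.

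In the shRNA set no subunit gene was called. limma called 0 of the 32 lower or higher in CBAP knockdown than in sh-Ctrl, beside 12.3% of all tested genes (8.7% lower and 3.62% higher), and 5 of the 32 had an unadjusted p under 0.05 (15.6%, against 30.3% of all tested genes). The median log2 change of the members was -0.09, that of all tested genes -0.06, and 22 of the 32 changes were negative (68.8%, against 59.9% of all genes). Both CBAP knockdown libraries lay below both sh-Ctrl libraries for 12 of the 32 genes, 37.5% against a background of 33.2%, and above them for POLR2L alone (3.12% against 17.4%). Scaling mattered for the direction of the background here, since the split over all genes was 994 lower and 414 higher as deposited, 830 and 845 after quantile normalization and 845 and 808 with median-of-ratios size factors. The median of the members under these scalings was -0.02 in each case, and no member was called.

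The replicates of the shRNA set differed more than those of the CRISPR set. The median absolute difference between replicates over the members was 0.18 log2 in sh-Ctrl and 0.15 in CBAP knockdown, but 0.03 in CBAP-reconstituted and 0.04 in CBAP knockout. All 8 libraries shared 1 estimate of the spread. With each set fitted alone, which changes both that estimate and its degrees of freedom, 75 of 11427 genes were called in the shRNA set (0.656%), again with 0 members, of which 2 had an unadjusted p under 0.05.

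Among the 5 genes with an unadjusted p under 0.05 in the shRNA set, POLR2G (RPB7, a stalk subunit of Pol II) was closest to the threshold. It was measured at 110 and 108 FPKM in sh-Ctrl and at 97.0 and 96.0 FPKM in CBAP knockdown, so the groups did not overlap (log2 change -0.17 ± 0.04 SE, limma adjusted p = 0.0546). ZNRD1 was measured at 80.4 and 71.7 FPKM in sh-Ctrl and at 61.5 and 62.1 FPKM in CBAP knockdown (log2 change -0.29 ± 0.07 SE, adjusted p = 0.0557). The others were POLR1B (-0.34, adjusted p = 0.125), POLR3GL (-0.26, adjusted p = 0.107) and POLR3K (-0.20, adjusted p = 0.11). CD3EAP gave 7.85 and 11.7 FPKM in sh-Ctrl and 6.40 and 7.41 FPKM in CBAP knockdown, with a log2 change of -0.43 ± 0.17 SE (adjusted p = 0.167). Its control libraries lay far apart, and it is the member whose sh-Ctrl replicates differed most, by 0.52 log2.

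In the CRISPR set most subunit genes fell. Of the 32 genes, 20 were lower in CBAP knockout than in CBAP-reconstituted cells (62.5%, against 25.9% of all tested genes) and 1, the pseudogene POLR2J4, was higher (23.9% of all tested genes), beside 49.9% called in either direction over all genes. The median log2 change of the members was -0.47, and that of all tested genes 0. Both CBAP knockout libraries lay below both CBAP-reconstituted libraries for 26 members (81.2%, against 42.7% of all genes). With no member called in the shRNA set, none could be called lower in both sets, and 4.03% of all genes were.

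**Figure D2:**
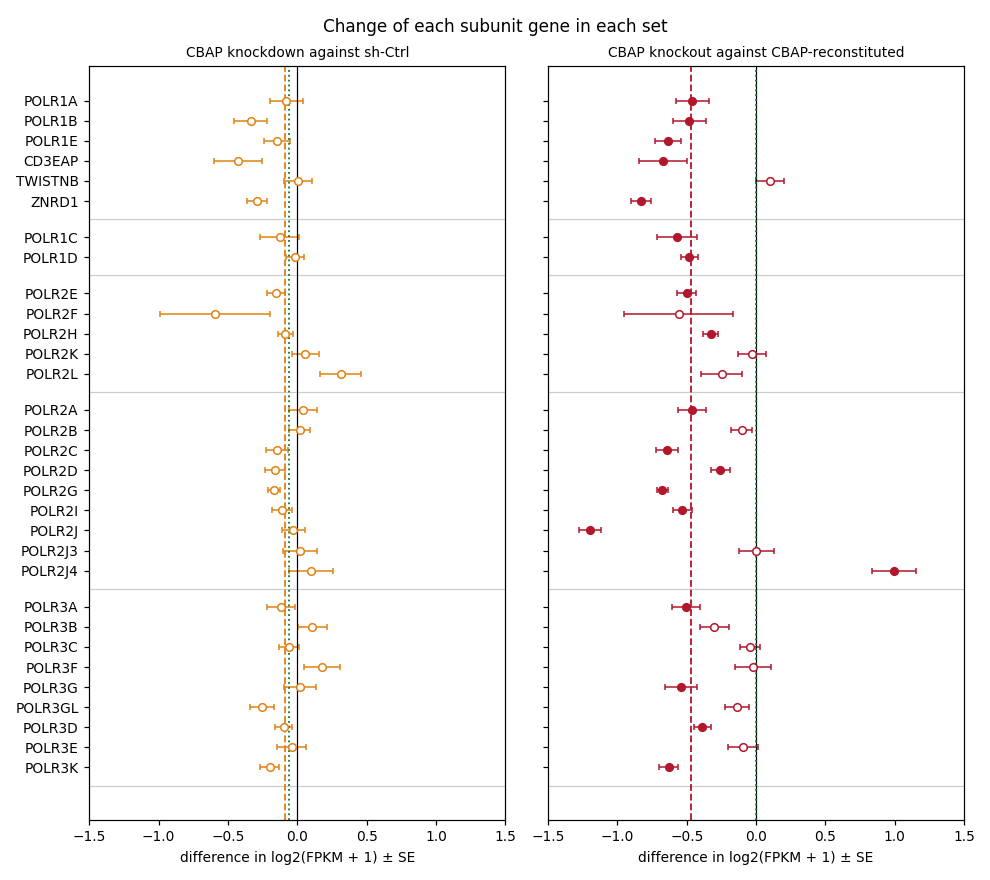
Difference in log2(FPKM + 1) of 31 of the 32 subunit genes with its standard error in the shRNA set (left) and the CRISPR set (right). Filled points passed an adjusted p of 0.05, the dashed line is the median of the 32 members and the dotted line that of all tested genes, and the members' median is -0.09 on the left and -0.47 on the right.

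Of the 6 Pol I genes, 5 fell in the CRISPR set (median log2 change -0.56) and none was called in the shRNA set (median -0.22). ZNRD1, the zinc-ribbon subunit RPA12, was measured at 82.1 and 81.4 FPKM in CBAP-reconstituted and at 47.6 and 43.7 FPKM in CBAP knockout. It fell by 44.2% (log2 change -0.83 ± 0.07 SE, limma adjusted p = 0.000516), and the knockout values were also below all values of the shRNA set. ZNRD1 lies on chromosome 6 (hg19, 30026676 to 30032686, plus strand), and 44.2% of its exonic bases overlap an antisense gene, listed in the table as ZNRD1-AS1, which was at 0.96 and 1.10 FPKM in CBAP-reconstituted and 1.57 and 1.85 FPKM in CBAP knockout and so moved the other way (0.42 ± 0.13 SE, adjusted p = 0.0453).

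POLR1E and CD3EAP encode PAF53 and PAF49, which pair on the outside of Pol I, and both fell. POLR1E was measured at 34.5 and 35.8 FPKM in CBAP-reconstituted and at 22.6 and 21.9 FPKM in CBAP knockout (log2 change -0.63 ± 0.09 SE, limma adjusted p = 0.00311). CD3EAP was measured at 11.6 and 11.9 FPKM in CBAP-reconstituted and at 6.81 and 7.19 FPKM in CBAP knockout (-0.67 ± 0.17 SE, adjusted p = 0.0224). Of the 32 members 18 share exonic bases with another annotated gene, and in CD3EAP 56.4% of its exonic bases overlap ERCC1 on the opposite strand of chromosome 19. ERCC1, a DNA repair gene, rose in the same comparison (0.34 ± 0.08 SE, adjusted p = 0.017), and the sources used here do not state whether counting used strand.

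The large catalytic subunits of Pol I fell by less. POLR1A was measured at 15.2 and 14.8 FPKM in CBAP-reconstituted and at 9.51 and 11.8 FPKM in CBAP knockout (-0.46 ± 0.12 SE, limma adjusted p = 0.0227), and POLR1B fell by 30.1% (-0.48 ± 0.12 SE, adjusted p = 0.0193). TWISTNB, the stalk subunit RPA43, was the exception among Pol I genes. It was measured at 22.2 and 21.9 FPKM in CBAP-reconstituted and at 23.3 and 24.0 FPKM in CBAP knockout, and its log2 change of 0.10 ± 0.10 SE was not called (adjusted p = 0.458).

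POLR1C and POLR1D encode the alpha-like pair on which Pol I and Pol III are assembled, and both fell in the CRISPR set. POLR1C was measured at 30.7 and 31.5 FPKM in CBAP-reconstituted and at 21.2 and 20.0 FPKM in CBAP knockout (-0.57 ± 0.14 SE, limma adjusted p = 0.0194). POLR1D, among the highest of all members, was measured at 122.7 and 127.0 FPKM in CBAP-reconstituted and at 90.2 and 88.0 FPKM in CBAP knockout (-0.48 ± 0.06 SE, adjusted p = 0.00198). Its knockout values were close to those of the shRNA set, 88.9 and 89.2 FPKM in sh-Ctrl and 83.4 and 93.0 FPKM in CBAP knockdown. The CBAP-reconstituted values lay above all of these, in a comparison that crosses the sets.

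Of the 5 subunits common to all 3 enzymes, 2 fell. POLR2E (RPB5) was measured at 38.0 and 37.1 FPKM in CBAP-reconstituted and at 26.4 and 26.1 FPKM in CBAP knockout (-0.50 ± 0.07 SE, limma adjusted p = 0.00231), and POLR2H (RPB8) fell by 20.6% (-0.33 ± 0.05 SE, adjusted p = 0.00494). POLR2K (RPB12) was at 112 and 116 FPKM in CBAP-reconstituted and at 115 and 108 FPKM in CBAP knockout, with overlapping groups (-0.03 ± 0.10 SE, adjusted p = 0.824). POLR2L (RPB10) had a log2 change of -0.25 ± 0.15 SE in the CRISPR set (adjusted p = 0.216) and of 0.31 ± 0.15 SE in the shRNA set (adjusted p = 0.228), in which it was at 74.6 and 84.8 FPKM in sh-Ctrl and at 84.8 and 116 FPKM in CBAP knockdown.

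POLR2F (RPB6), also common to all 3 enzymes, could not be read in CBAP knockout, because its libraries disagreed. It was measured at 46.4 and 47.8 FPKM in CBAP-reconstituted, and at 19.6 FPKM in CBAP knockout replicate 1 against 50.7 FPKM in replicate 2, a gap of 1.33 log2 that no other member approached. With both libraries the log2 change was -0.56 ± 0.40 SE (limma adjusted p = 0.285), without knockout replicate 2 it was -1.22 (adjusted p = 0.000735), and without knockout replicate 1 it was 0.10 (adjusted p = 0.304). In the shRNA set POLR2F was at 31.0 and 31.5 FPKM in sh-Ctrl and at 19.9 and 20.9 FPKM in CBAP knockdown, the lowest log2 change of any member there (-0.59 ± 0.40 SE, adjusted p = 0.367). That standard error carries the knockout gap, and without CBAP knockout replicate 1 or 2 the same shRNA-set change had an adjusted p of 0.0155 or 0.0159. Across the genome 2.84% of tested genes differed by over 1 log2 between the knockout replicates.

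Of the 9 Pol II genes, 6 fell and 1 rose in the CRISPR set (median log2 change -0.46), and none was called in the shRNA set (median -0.03). The 9 include POLR2J3, which gave no reading of a change in the CRISPR set. POLR2A (RPB1), whose long C-terminal repeat domain recruits processing factors, was measured at 99.7 and 99.1 FPKM in CBAP-reconstituted and at 74.3 and 69.5 FPKM in CBAP knockout (-0.46 ± 0.10 SE, limma adjusted p = 0.0125). Its partner in the active site, POLR2B (RPB2), was at 81.7 and 83.1 FPKM against 76.2 and 77.1 FPKM, a small difference that was not called (-0.10 ± 0.07 SE, adjusted p = 0.282). The libraries of POLR2A in the shRNA set, 59.1 to 70.4 FPKM, all lay below those of CBAP-reconstituted.

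POLR2D (RPB4) and POLR2G (RPB7) form the Pol II stalk, and both fell, by unequal amounts. POLR2G was measured at 105 and 108 FPKM in CBAP-reconstituted and at 65.8 and 66.9 FPKM in CBAP knockout, and fell by 37.7% (-0.67 ± 0.04 SE, limma adjusted p = 0.000164). POLR2D was measured at 47.7 and 48.6 FPKM in CBAP-reconstituted and at 39.5 and 40.7 FPKM in CBAP knockout (-0.26 ± 0.07 SE, adjusted p = 0.0263). POLR2C (RPB3), an alpha-like assembly subunit, was at 73.1 and 70.0 FPKM against 45.5 and 45.4 FPKM (-0.64 ± 0.08 SE, adjusted p = 0.00161). POLR2I (RPB9), the zinc-ribbon subunit, fell by 31.3% (-0.53 ± 0.07 SE, adjusted p = 0.00222), and 47.4% of its exonic bases overlap genes on the opposite strand.

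POLR2J (RPB11), the partner of RPB3, had the lowest log2 change of all members in the CRISPR set, and part of its sequence recurs in recent copies on chromosome 7, so its values are uncertain. The first 120 coding bases of POLR2J (hg19, chr7:102113575-102119369, minus strand) are shown with the aligned bases of POLR2J2 (chr7:102305815-102312110, minus strand) and POLR2J3 (chr7:102178365-102213100, minus strand), from GENCODE v44 lifted to GRCh37. Capitals mark bases that differ from POLR2J.
POLR2J: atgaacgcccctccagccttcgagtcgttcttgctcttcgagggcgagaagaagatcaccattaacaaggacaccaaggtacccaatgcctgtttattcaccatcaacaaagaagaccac
POLR2J2: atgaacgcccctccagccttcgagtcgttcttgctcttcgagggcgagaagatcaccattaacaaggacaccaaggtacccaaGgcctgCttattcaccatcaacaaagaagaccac
POLR2J3: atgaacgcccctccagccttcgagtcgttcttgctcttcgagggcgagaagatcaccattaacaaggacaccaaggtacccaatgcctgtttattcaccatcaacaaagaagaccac

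Both copies lack 3 of these 120 bases. POLR2J2 further differs at T87G and T93C, counted from the first coding base of POLR2J with its base first, and POLR2J3 has no further difference in this stretch. Within the coding sequence of 1 transcript per gene, the longest run shared exactly with POLR2J was 221 bases for POLR2J2 and 96 bases for POLR2J3. Over whole transcripts, 212 of the 838 windows of POLR2J with the read length of 100 bases (25.3%) also occur in another annotated gene. That gene was most often POLR2J3. The share of such windows was 84.6% for POLR2J3 and 29.9% for POLR2J4, whereas 26 of the 32 members had none.

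POLR2J was measured at 37.3 and 42.9 FPKM in CBAP-reconstituted and at 17.1 and 16.7 FPKM in CBAP knockout, a fall by 57.9% (log2 change -1.20 ± 0.08 SE, limma adjusted p = 0.000235). In the shRNA set it was at 28.4 and 30.1 FPKM in sh-Ctrl and at 29.6 and 27.7 FPKM in CBAP knockdown, with overlapping groups (-0.03 ± 0.08 SE, adjusted p = 0.86). POLR2J3 was at 34.3, 33.6, 32.0 and 37.1 FPKM in the sh-Ctrl and CBAP knockdown libraries, and at 0.52, 0.41, 0.62 and 0.32 FPKM in the CBAP-reconstituted and CBAP knockout libraries. It was not called in the shRNA set, and its low level in the CRISPR set gave no reading of a change there. The ratio of POLR2J3 to POLR2J was 1.08 to 1.34 in the shRNA set and 0.00945 to 0.0362 in the CRISPR set. The row named for POLR2J2 and UPK3BL likewise ran from 16.6 to 24.0 FPKM in the shRNA set and from 3.84 to 4.47 FPKM in the CRISPR set. Whether reads of POLR2J and its copies were shared out alike in both sets was not tested. The method of CBAP loss, the clones and any difference in processing between the sets cannot be told apart.

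POLR2J4, a pseudogene copy on the short arm of the same chromosome, was the single member that rose in the CRISPR set. It was measured at 0.92 and 0.78 FPKM in CBAP-reconstituted and at 2.64 and 2.76 FPKM in CBAP knockout (0.996 ± 0.16 SE, limma adjusted p = 0.00399). The knockout values were within the range of the shRNA set, 2.59 to 3.94 FPKM, and the CBAP-reconstituted values lay below it. This comparison crosses the sets, between which the level of POLR2J3 differed as a whole, and which condition moved was not tested.

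Of the 10 Pol III genes, 5 fell in the CRISPR set (median log2 change -0.34), and none was called in the shRNA set (median -0.08). The catalytic subunit POLR3A was measured at 11.6 and 11.6 FPKM in CBAP-reconstituted and at 7.91 and 7.80 FPKM in CBAP knockout (-0.51 ± 0.10 SE, limma adjusted p = 0.00944). POLR3B, the second-largest subunit, was at 7.24 and 7.20 FPKM against 5.58 and 5.76 FPKM and missed the threshold (-0.30 ± 0.10 SE, adjusted p = 0.0573), but was called lower under 9 of 18 alternatives, separate fits and both other scalings among them. POLR3K (RPC11), the zinc-ribbon subunit, fell from 79.6 and 78.5 FPKM to 50.3 and 51.1 FPKM (-0.63 ± 0.07 SE, adjusted p = 0.000966). ZNRD1, POLR2I and POLR3K, which encode the zinc-ribbon subunit of each enzyme, thus fell, as did 62.5% of the members.

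CRCP, which encodes a Pol III subunit but is no member by name, was listed at 0 in 3 of the 4 CRISPR-set libraries and at 24.5 FPKM in CBAP knockout replicate 1, against 14.5 to 17.9 FPKM in the shRNA set, so it gave no reading there.

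The trimer by which Pol III engages its initiation factors contains POLR3C, POLR3F and either POLR3G or its paralog POLR3GL, and of these POLR3G alone fell. POLR3G was measured at 16.3 and 16.6 FPKM in CBAP-reconstituted and at 10.7 and 11.3 FPKM in CBAP knockout (-0.54 ± 0.11 SE, limma adjusted p = 0.0113). POLR3GL was at 21.8 and 22.1 FPKM against 19.3 and 20.4 FPKM (-0.14 ± 0.08 SE, adjusted p = 0.222). POLR3C (-0.04, adjusted p = 0.659) and POLR3F (-0.02, adjusted p = 0.921) had changes near 0. POLR3G made up 42.9% of the FPKM of POLR3G and POLR3GL together in both CBAP-reconstituted libraries and 35.7% in both CBAP knockout libraries, but 41.0% and 48.8% in sh-Ctrl and 47.3% and 52.3% in CBAP knockdown, where the groups overlap.

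POLR3D and POLR3E encode the RPC53 and RPC37 pair, which acts in initiation and termination, and differed in outcome. POLR3D was measured at 23.0 and 23.7 FPKM in CBAP-reconstituted and at 18.2 and 17.1 FPKM in CBAP knockout (-0.39 ± 0.06 SE, limma adjusted p = 0.00379). POLR3E was at 22.2 and 22.1 FPKM against 20.9 and 20.4 FPKM (-0.09 ± 0.11 SE, adjusted p = 0.494). That one passed the threshold and the other did not is no test of the difference between them.

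Setting the 4 conditions side by side, the CBAP-reconstituted mean was the highest of the 4 for 25 of the 32 members (78.1%, against 38.6% of all tested genes). It was above the sh-Ctrl mean for 26 members (81.2% against 68.6%), and the CBAP knockout mean was below the sh-Ctrl mean for 22 members (68.8% against 38.4%). Some genes, such as ZNRD1, POLR2G and POLR3G, were near the sh-Ctrl level in CBAP-reconstituted and below it in CBAP knockout. Others, such as POLR1D and POLR2A, were above it in CBAP-reconstituted and close to it in CBAP knockout, where POLR2A was at 1.14 times the sh-Ctrl mean. These ratios cross the sets, for which method, clones and processing cannot be told apart. They use FPKM as deposited, while median-of-ratios size factors were 0.960 and 0.964 in sh-Ctrl and 1.074 to 1.08 in the CRISPR set. Under that scaling the CRISPR-set levels would be lower relative to sh-Ctrl.

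**Figure D3:**
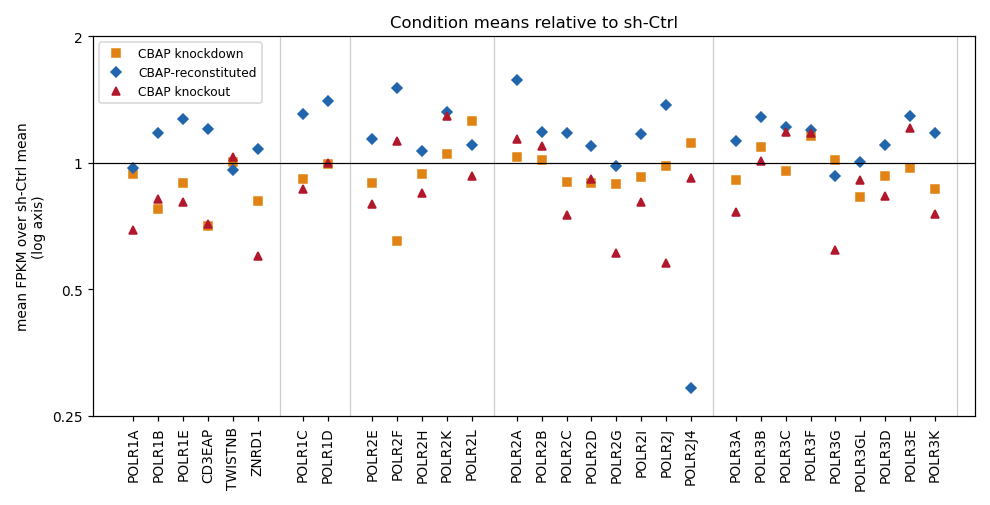
Mean FPKM of 30 members in CBAP knockdown, CBAP-reconstituted and CBAP knockout divided by their sh-Ctrl means (log axis, 2 libraries per mean), with POLR2J3 left out because its level differs between the sets as a whole. The CBAP-reconstituted mean is the highest of the 4 conditions for 25 of the 32 members.

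The difference between the changes of both sets was tested in the same model. It was called for 14 members (43.8%, against 33.8% of all tested genes). In 13 of them the CRISPR-set change was the lower (40.6%, against 15.5% of all genes), and in POLR2J4 it was the higher (18.3% of all genes). POLR2J had the widest difference, 1.17 ± 0.12 SE log2 (adjusted p = 0.0017), and POLR2G was the most precise at 0.51 ± 0.06 SE (adjusted p = 0.00274). For POLR1B (0.14 ± 0.17 SE, adjusted p = 0.536) and CD3EAP (0.25 ± 0.25 SE, adjusted p = 0.47), which had negative changes in both sets, no difference was called, and that does not show that they changed alike. Fewer differences were called without replicate 1 or replicate 2 of CBAP-reconstituted, among the members and among all genes. The share called was then smaller among the members than among all genes. The sizes moved little, for example to 0.498 or 0.506 for POLR2A (0.502 with all libraries) and to 0.516 or 0.462 for POLR1E (0.489). The sign of all 14 differences was kept under every alternative, and why calls were lost was not tested.

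The calls of the CRISPR set also depended on single libraries, while the median log2 change of the members moved little. That median was -0.472 with all libraries. It was -0.47 and -0.464 without CBAP-reconstituted replicate 1 or 2, and -0.465 and -0.464 without CBAP knockout replicate 1 or 2. Leaving out 1 library of the set in turn gave 13 to 17 calls in place of 21, beside 29.5% to 36.6% of all genes, and 8 genes lost their call in at least 1 case, namely POLR1A, POLR1B, CD3EAP, POLR1C, POLR2A, POLR2D, POLR3A and POLR3G, with adjusted p values from 0.0569 to 0.126 where lost. Each of the 4 libraries removed some of these calls. The direction was kept for all 21 genes under all 18 alternatives run, and 13 genes were called in all of them, where POLR2J4 was left out by the filter at a mean FPKM of 5 and had 1 alternative fewer. Of the 11 members not called in this set, 8 were called under at least 1 alternative.

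The transcription factors and assembly proteins that work with these enzymes were read from lists of their known members, and each count is to be set against the 25.9% of all tested genes that fell and the 23.9% that rose in the CRISPR set, and against 8.7% and 3.62% in the shRNA set. Of 7 Pol I factors none fell and 2 (28.6%) rose in the CRISPR set (median log2 change 0.10), among them TTF1, the Pol I termination factor, at 17.2 and 18.2 FPKM in CBAP-reconstituted and 24.7 and 25.2 FPKM in CBAP knockout (0.47 ± 0.08 SE, limma adjusted p = 0.00633). TAF1B, a subunit of the Pol I promoter factor SL1, was the single Pol I factor called in the shRNA set, at 11.9 and 13.2 FPKM in sh-Ctrl and 8.61 and 8.97 FPKM in CBAP knockdown (-0.47 ± 0.08 SE, adjusted p = 0.0226). Falls in the CRISPR set were thus called for 5 of 6 Pol I subunits and 0 of 7 Pol I factors, and the lists were not tested against each other. The shRNA-set calls of this and the other lists rest on the spread shared by both sets. Over all genes, 994 were called lower and 414 higher in the shRNA set, but 17 and 58 with each set fitted alone. Whether partner genes kept their calls in that fit was not tested.

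Of 19 general factors of Pol II, 10 (52.6%) fell and 1 rose in the CRISPR set (median -0.30), and 2 fell in the shRNA set. CCNH, the cyclin of the CDK-activating kinase in TFIIH, was at 34.7 and 30.1 FPKM in sh-Ctrl and 21.2 and 24.1 FPKM in CBAP knockdown (-0.50 ± 0.09 SE, limma adjusted p = 0.0273), and fell in the CRISPR set too (-0.57 ± 0.09 SE, adjusted p = 0.00424). GTF2H4, another TFIIH subunit, was at 30.6 and 28.6 FPKM in CBAP-reconstituted and listed at 0 in the other 6 libraries, so no fold is given. It is counted among the 10 falls, though it passed the expression minimum through CBAP-reconstituted only. GTF2H2, also among the 19, had means of 11.5 and 9.62 FPKM in sh-Ctrl and CBAP knockdown. Its means were 0.938 and 0.853 FPKM in CBAP-reconstituted and CBAP knockout, so it gave no reading of a change there. Of 13 TFIID subunits 4 (30.8%) fell and 2 (15.4%) rose in the CRISPR set (median 0.01), a share of falls near the background. TAF9 was at 204 and 218 FPKM in CBAP-reconstituted and 114 and 109 FPKM in CBAP knockout (-0.91 ± 0.08 SE, adjusted p = 0.000503), and TAF6 rose in the shRNA set (0.51 ± 0.05 SE, adjusted p = 0.005), in which 0 TFIID genes fell and 2 rose.

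Of 14 pausing and elongation genes 6 (42.9%) fell and 2 rose in the CRISPR set (median -0.10), while 1 fell and 2 rose in the shRNA set. All 4 genes of NELF, the complex that holds paused Pol II, were among the falls, as WHSC2, COBRA1, TH1L and RDBP encode it, a grouping chosen after their values were seen. COBRA1, its B subunit, was at 44.4 and 45.9 FPKM in CBAP-reconstituted and 26.7 and 25.9 FPKM in CBAP knockout (-0.76 ± 0.08 SE, limma adjusted p = 0.00117), and TH1L fell least (-0.24 ± 0.07 SE, adjusted p = 0.0316). In the shRNA set SUPT4H1, a subunit of the elongation factor DSIF, rose (0.40 ± 0.08 SE, adjusted p = 0.0278).

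Of 17 Pol III factors 8 (47.1%) fell and 1 rose in the CRISPR set (median -0.21). The 17 include the subunit gene CRCP, which gave no reading in the CRISPR set and was not called. GTF3C6, a subunit of TFIIIC, was at 73.6 and 70.9 FPKM in CBAP-reconstituted and 34.8 and 37.0 FPKM in CBAP knockout (-0.99 ± 0.10 SE, limma adjusted p = 0.00078). MAF1, a repressor of Pol III and so of opposite function to the rest of its list, was the single Pol III factor called in the shRNA set (-0.24 ± 0.06 SE, adjusted p = 0.0464), and it fell in the CRISPR set as well (-0.41 ± 0.06 SE, adjusted p = 0.00226). Of 14 assembly proteins 8 (57.1%) fell and 1 rose in the CRISPR set (median -0.39), with PFDN6, a prefoldin subunit, at 152 and 159 FPKM in CBAP-reconstituted and 82.1 and 85.4 FPKM in CBAP knockout (-0.89 ± 0.07 SE, adjusted p = 0.000317). The 14 include GPN2 and RUVBL2, which were listed at 0 in CBAP knockout replicate 1 and were not called. UXT, a prefoldin-like protein, was the single assembly gene called in the shRNA set (-0.26 ± 0.05 SE, adjusted p = 0.0254). POLRMT, the single-subunit polymerase of mitochondria, fell in the CRISPR set (-0.63 ± 0.10 SE, adjusted p = 0.00468).

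**Figure D4:**
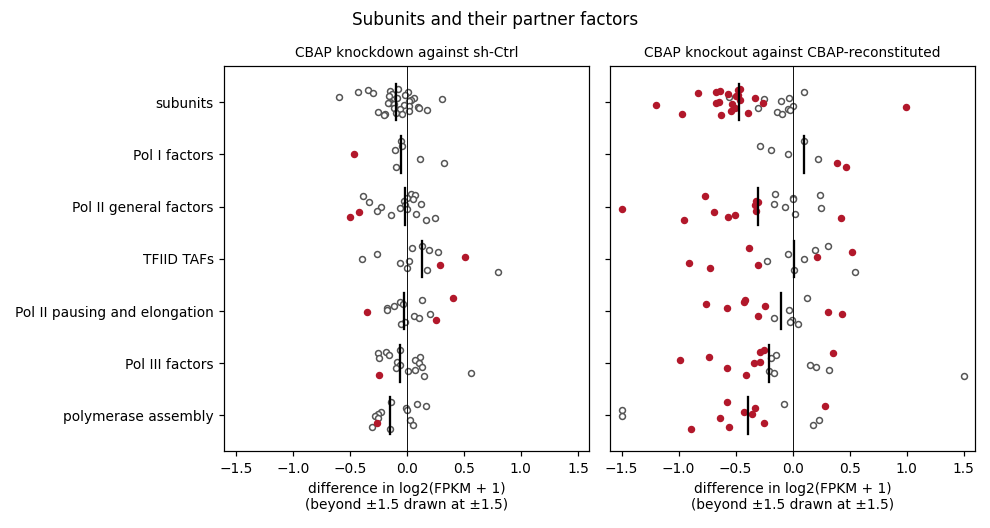
Difference in log2(FPKM + 1) of the subunit genes and of the genes in 6 partner lists in each set, with 1 point per gene, filled where the adjusted p is under 0.05, and a bar at the median of each list. In the CRISPR set the medians are -0.47 for the subunits, 0.10 for the Pol I factors and -0.39 for the assembly proteins, and points beyond 1.5 are drawn at the edge.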

How the data were processed

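RNA of 8 Jurkat libraries, 2 per condition, was sequenced as 100-base paired-end reads. The authors aligned reads to hg19 with TopHat 2 and computed the deposited FPKM values with Cuffdiff of Cufflinks, and the labels also name CASAVA 1.8 and Bowtie. Further version numbers, the annotation, strand use and depth are not given in the sources used here. No whole-read steps were found in the FPKM, and count tests were not used.

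Genes averaging an FPKM of 1 or more were fitted with limma 3.58.1 (R 4.3.3) on log2(FPKM + 1), with a mean per condition over all 8 libraries, a variance trend and Benjamini-Hochberg adjustment over 11427 genes. Contrasts were CBAP knockdown minus sh-Ctrl, CBAP knockout minus CBAP-reconstituted, and the first minus the second. Scripts were tested on simulated data. Gene positions and windows came from GENCODE v44 lifted to GRCh37, promoters from RefSeq. All members were named, and of each partner list the called gene with the largest change and no overlap in each set (other genes named were chosen after their values were seen). Members and lists were chosen with earlier results of these data known. Replicate numbers were treated as names only. Alternatives were pseudocounts, filters, scalings, no variance trend, separate fits, a replicate block and leaving out libraries. The values of 1 member are not reported here, though all counts and medians include it.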

Additional observations from a re-analysis of the deposited data

Results flagged for a closer look

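For 14 members the change in the shRNA set and that in the CRISPR set differed by the limma test of the difference itself, and 13 of them are given. Values are on the log2(FPKM + 1) scale and were taken as the change in the shRNA set less that of the CRISPR set, so a positive value means that the CRISPR-set change was the lower. Among Pol I genes the difference was 0.54 for ZNRD1 (adjusted p = 0.013) and 0.49 for POLR1E (adjusted p = 0.0374). POLR1D, shared with Pol III, differed by 0.47 (adjusted p = 0.0126), and POLR2E, common to all 3 enzymes, by 0.35 (adjusted p = 0.04). Among Pol II genes it was 1.17 for POLR2J (adjusted p = 0.00169), 0.51 for POLR2G (adjusted p = 0.00274), 0.50 for POLR2A (adjusted p = 0.043), 0.50 for POLR2C (adjusted p = 0.0213) and 0.42 for POLR2I (adjusted p = 0.0261). POLR2J4 alone had a negative value, -0.90 (adjusted p = 0.0287). Among Pol III genes the difference was 0.56 for POLR3G (adjusted p = 0.0456), 0.43 for POLR3K (adjusted p = 0.0198) and 0.29 for POLR3D (adjusted p = 0.0478). Method of CBAP loss, clones and processing cannot be told apart between the sets.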

How the results depend on the processing

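The count of members called in the shRNA set was 0 and became 1 with a pseudocount of 0.1, with no filter on low values (POLR2G in both) and with genes listed at 0 in any library left out (ZNRD1). Leaving out 1 library gave 0 to 3 calls there, and a median of the members from -0.146 to 0.000473, the last without sh-Ctrl replicate 2, and 10 of the 32 were called under at least 1 alternative. In the CRISPR set the count of 21 ran from 13 to 24 when 1 library was left out, and was 27 with each set fitted alone. The CRISPR-set median of -0.47 moved to -0.371 with a pseudocount of 5 and to -0.397 after quantile normalization. The difference between the sets, called for 14 members, was called for 2 to 17 with 1 library left out and for 6 with the replicate block, under which the shRNA set held 0 calls and the CRISPR set 22. With the block 71 of all genes were called in the shRNA set, 4581 in the CRISPR set and 2285 for the difference, against 1408, 5697 and 3861 without it. Same-numbered libraries correlated at r = 0.146 (shRNA set) and r = 0.0239 (CRISPR set), so the numbers were not taken to pair samples. The POLR2F difference of -0.03 became -0.697 without CBAP knockout replicate 1 (limma adjusted p = 0.0106) and 0.631 without CBAP knockout replicate 2. Of the 14 differences 2 were called under all 17 alternatives. The cause of these moves was not tested. Over all members, alternatives and comparisons, 1540 cases stayed on their side of the threshold (the sign differed in 55 of these, none of them called), 101 lost and 51 gained a call, and 1 reversed. POLR2J4 gave no value with the filter at a mean FPKM of 5.

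Depth is unknown, so no counting error can be given for low genes such as POLR2J4. With 2 libraries per condition the spread rests on 4 residual degrees of freedom shared by both sets.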
